A study of Mus musculus with 86 samples.

Results

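The RNAs described here encode 7 scaffold proteins of the presynaptic active zone: the 4 liprin-α proteins (*Ppfia1*, *Ppfia2*, *Ppfia3*, *Ppfia4*), Bassoon (*Bsn*), Piccolo (*Pclo*) and ELKS1 (*Erc1*). They are 7 of 53664 mouse genes. *Ppfia3* and *Bsn* were picked because their neurite enrichment fell in TDP-43 knockout CAD cells, and the other 5 were taken as their family members or binding partners. The values of *Ppfia3* and *Bsn* in CAD cells are therefore given as descriptions with no test. RNA was sequenced from the soma and neurite fractions of cells grown on porous membranes, and the localization ratio (LR) of an RNA compares the fractions as log2(neurite level/soma level). Of the series' 86 samples, the 36 libraries of 3 experiments are used, with 3 libraries in each of 12 groups. In CAD cells (a mouse catecholaminergic neuronal line) and in N2A cells (a mouse neuroblastoma line), the endogenous *Tardbp* alleles had been inactivated and the only TDP-43 came from an HA-tagged transgene under a doxycycline-off promoter. Both states of a line carry these edits. Cells without doxycycline are called wild-type, and cells given doxycycline for 48 h (2 μg/mL per the labels) are called knockout. The lines were derived from single-cell clones, and the number of clones sequenced is not given in the sources used here. Doxycycline itself and loss of TDP-43 cannot be told apart. In the third experiment, CAD cells with intact endogenous *Tardbp* expressed a doxycycline-inducible, HA-tagged TDP-43 transgene at a single genomic site, either wild-type or with the ALS mutation Q331K. By the paper's methods, both transgenes were induced with doxycycline for longer than 48 h before fractionation. All libraries of this experiment thus had doxycycline, for which their labels give no dose.

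The active zone is the patch of presynaptic membrane where synaptic vesicles dock and fuse. Bassoon and Piccolo are very large proteins that hold vesicles near this membrane, ELKS proteins link calcium channels to the release machinery, and liprin-α proteins organize the assembly through LAR-type receptor tyrosine phosphatases and the vesicle motor KIF1A. Liprin-α1 and ELKS1 are also made outside neurons, where they sit with LL5 and KANK proteins at the cell cortex near focal adhesions. TDP-43 is a nuclear RNA-binding protein that prefers GU-rich RNA, regulates splicing, and is lost from the nucleus in most cases of ALS.

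The 3′ UTRs of the 7 RNAs were searched for 3 GU-rich 5-mers of the kind TDP-43 binds, which were GUGUG, its shifted form UGUGU, and the variant with an A, GUAUG, on the RNA strand alone and with overlapping matches each counted. *Bsn* stood apart. Its longest annotated 3′ UTR (3983 bases) held 96 matches, or 24.1 per kb, a density that 97.7% of the 20674 genes with a 3′ UTR of at least 50 bases were at or below. The median gene had a UTR of 988 bases and 4.27 matches per kb, and 66.2% of genes held GUGUG, 73.6% UGUGU, 51.3% GUAUG and 81.8% any of the 3. *Ppfia4* had 20 matches (9.53 per kb) and *Erc1* 25 (5.18 per kb). *Ppfia3*, with 4 matches in 905 bases (4.42 per kb), was near the median, and *Pclo* (3.72 per kb), *Ppfia2* (3.08 per kb) and *Ppfia1* (2 matches in 1244 bases, 1.61 per kb) were under it. Below, the 30 bases of each UTR with the most bases inside a match are shown 5′ to 3′ on GRCm38 with those bases in capitals, because they set the GU repeat of *Bsn* beside *Ppfia3* and *Ppfia1*, whose LR was also lower in knockout CAD cells, and beside *Ppfia4* and *Erc1*, whose LR change did not pass the test.
Bsn 3′ UTR, chr9:108096414-108096443, minus strand: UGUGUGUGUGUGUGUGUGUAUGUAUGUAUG
Ppfia3 3′ UTR, chr7:45339129-45339158, minus strand: acucugcacugagauuaaagGUGUGUGcca
Ppfia1 3′ UTR, chr7:144477664-144477693, minus strand: uacuguaaugcuUGUGUauaaaucugagca
Ppfia4 3′ UTR, chr1:134296835-134296864, minus strand: GUGUGUGagugaGUGUGUGaGUGUGUGUGg
Erc1 3′ UTR, chr6:119574687-119574716, minus strand: aauaGUAUGaaaugccuacuUGUGUGcaca
The *Bsn* window is a run of GU followed by GUAU repeats in which all 30 bases lie in a match. The *Ppfia4* window holds 23 such bases, the *Erc1* window 11, the *Ppfia3* window 7 and the *Ppfia1* window 5. A match describes the letters and is not a bound site. The 3 RNAs whose CAD neurite level was lower in knockout cells are *Bsn* at chr9:108096022-108190384, *Ppfia3* at chr7:45339122-45367019 and *Ppfia1* at chr7:144476758-144553729. They are transcribed from the minus strand, as are *Ppfia4* and *Erc1*.

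**Figure D1:**
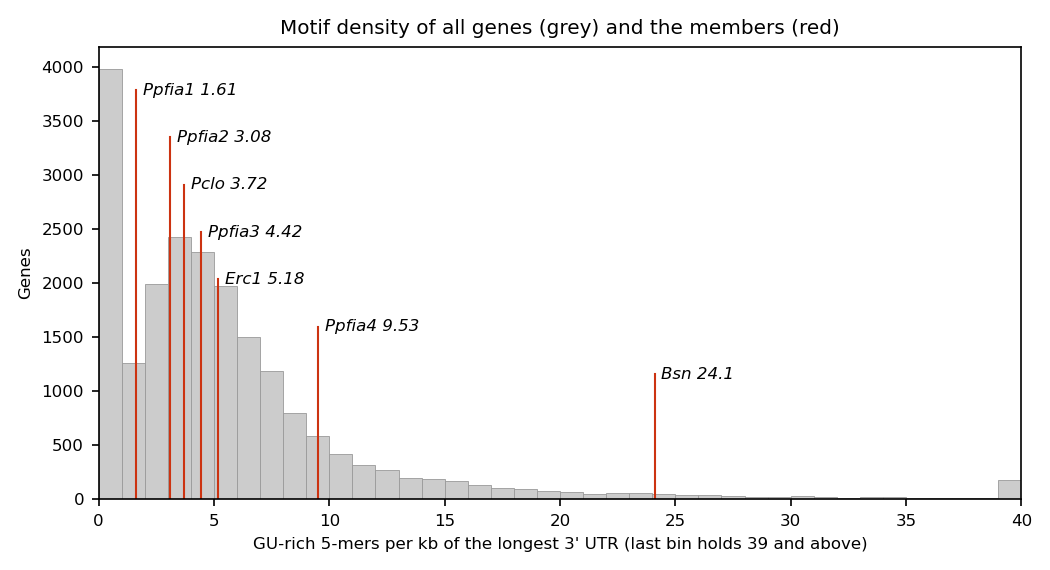
Number of genes (grey bars, y axis) by the density of the 3 GU-rich 5-mers in the longest annotated 3′ UTR (x axis, matches per kb), with the 7 RNAs as red lines. *Bsn* lies at 24.1 per kb in the tail and *Ppfia1* at 1.61 per kb near the low end.

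With 3 libraries per group, p-values measure the spread between these libraries. They held between 22726534 and 32895542 estimated counts in CAD and N2A cells and between 9783050 and 15870647 in the Q331K experiment. Levels are CPM, counts scaled to the size of the library by TMM within an experiment, and levels compared between genes are TPM, which also correct for transcript length. Mean *Tardbp* fell from 537 to 93.8 CPM in CAD soma and from 579 to 169 CPM in N2A soma. In the Q331K experiment it lay between 705 and 875 CPM in every library, so gene-level counts do not check which transgene a library carried. Of 7 neuronal markers, 6 reached 1 TPM in each experiment and *Nefl* did not. Of 7 catecholaminergic markers, 5 reached it in each experiment. *Slc18a2* was under 1 TPM in every experiment, *Ddc* in CAD cells and the Q331K experiment, and *Th* in N2A cells. Markers of astrocytes and of microglia and blood summed to at most 3.43 TPM in the mean of any group, those of oligodendrocytes to at most 10.9 TPM, and those of endothelium and fibroblasts to at most 7.05 TPM in CAD and N2A cells and 28.4 TPM in the Q331K experiment.

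In the soma of wild-type CAD cells, *Ppfia1* was the most abundant of the 7 RNAs at 51.4 ± 9.38 TPM (SD, n = 3). *Ppfia3* (22.6 ± 3.33 TPM) and *Erc1* (22 ± 2.41 TPM) did not differ beyond their spread, and *Bsn* was at 7.72 ± 1.21 TPM. *Ppfia4* (0.292 ± 0.0774 TPM), *Ppfia2* (0.0415 ± 0.0152 TPM) and *Pclo* (0.0250 ± 0.0200 TPM) were near the limit of detection, and the last 2 had between 1 and 12 counts in each CAD library and did not pass the filter on low counts. In wild-type N2A soma, *Ppfia1* was again first at 44.6 ± 2.19 TPM, and *Ppfia3* (19.4 ± 1.47 TPM) and *Erc1* (18.5 ± 0.718 TPM) overlapped. *Ppfia2* followed at 15.1 ± 1.58 TPM and *Bsn* at 8.14 ± 0.601 TPM. *Ppfia4* (0.923 ± 0.179 TPM) and *Pclo* (0.0743 ± 0.00797 TPM) were again lowest. Thus 5 of the 7 passed the filter in CAD cells (3 of them tested, since *Ppfia3* and *Bsn* are described only), 7 in N2A cells and 5 in the Q331K experiment, where *Ppfia4* and *Pclo* had at most 7 counts in any library.

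**Figure D2:**
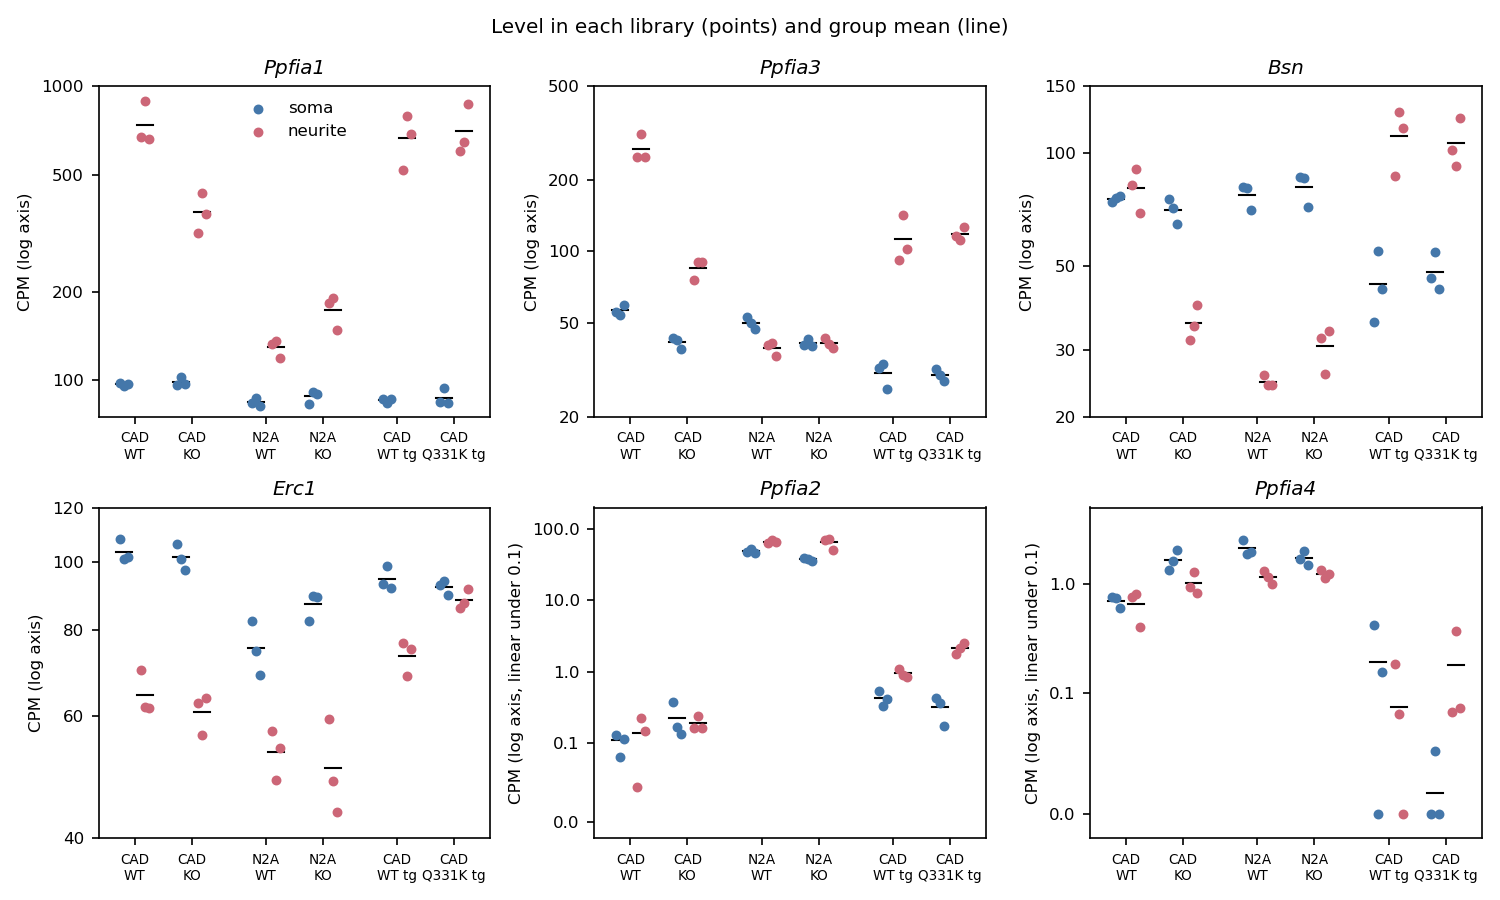
CPM (y axis, log scale, linear under 0.1 for *Ppfia2* and *Ppfia4*) of 6 RNAs in each soma (blue) and neurite (red) library, with group means as lines. WT and KO are wild-type and knockout cells, and WT tg and Q331K tg are CAD cells with either transgene. The knockout CAD neurites lie under the wild-type ones for *Ppfia1*, *Ppfia3* and *Bsn*, and *Ppfia2* is high in N2A cells alone.

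The first comparison asked where these RNAs lay in wild-type CAD cells. *Ppfia1*, which encodes the broadly expressed liprin-α1, was at 97.4, 95.3 and 97.3 CPM in the 3 soma libraries and at 669, 887 and 662 CPM in the 3 neurite libraries. Every neurite library was above every soma library, and its LR was 2.94 ± 0.12 (SE), a 7.65-fold enrichment in neurites (FDR = 3.55e-11, edgeR's quasi-likelihood test with Benjamini-Hochberg adjustment). *Erc1* went the other way, with 108, 101 and 102 CPM in soma and 69.9, 61.8 and 61.7 CPM in neurites. These groups did not overlap either, and its LR was −0.69 ± 0.07 (FDR = 4.8e-07). The LR of *Ppfia4* was −0.12 ± 0.33 (FDR = 0.78). Of the 5 RNAs not picked on these cells, 3 were tested and 2 passed an FDR of 0.01, which 41.3% of all 17343 tested genes did.

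*Ppfia3*, which encodes a liprin-α of brain synapses, was at 55.4, 54.1 and 59.6 CPM in wild-type CAD soma. It was at 249.4, 312 and 249.5 CPM in neurites, an LR of 2.26 ± 0.09 as a description. *Bsn* was at 74.2, 75.6 and 76.8 CPM in soma and at 81.9, 90.6 and 69.2 CPM in neurites. Its groups overlapped, and its LR was 0.09 ± 0.09. *Ppfia1* and *Ppfia3* thus had neurite-enriched RNA in these cells, *Bsn* RNA was about even, and *Erc1* RNA was higher in the soma. On the TPM scale, the median LR over all tested genes was −1.745 in CAD cells before and −1.35 after knockout, so TPM ratios are read relative to it, and relative to it the LRs were 2.57 for *Ppfia1*, 2.12 for *Ppfia3*, 0.13 for *Bsn* and −0.66 for *Erc1*.

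The second comparison asked what changed in CAD cells once TDP-43 was turned off. RNA for *Ppfia1*, *Ppfia3* and *Bsn* was lower in knockout neurites, while *Erc1* RNA stayed within the spread of its libraries. In neurites, *Ppfia1* was at 669, 887 and 662 CPM in wild-type and 316, 433 and 369 CPM in knockout libraries, without overlap. It fell by 0.99 ± 0.11 on the log2 scale, or 1.99-fold (FDR = 4.68e-06). In soma it was at 97.4, 95.3 and 97.3 CPM in wild-type and 95.9, 102.5 and 97.2 CPM in knockout cells, which overlapped (log2 change 0.03 ± 0.11, FDR = 0.898). Its LR fell by 1.02 ± 0.16, from 2.94 to 1.92 (FDR = 0.00379). In bulk fractions, fewer neurites or cells carrying an RNA and less of it in each cannot be told apart. Among the 5 RNAs not picked on these cells, 3 were tested, and *Ppfia1* was the 1 that passed an FDR of 0.01 for the LR change, against 0.432% of all tested genes (39 higher and 36 lower with edgeR, 78 higher and 145 lower with DESeq2). Likewise it was the 1 of 3 that passed in neurites, against 25.3% of genes. The LR call was lost when replicate 1, 2 or 3 of every group was left out in turn (log2 change −0.95 to −1.10, FDR = 0.0115 to 0.0297) and with counts scaled by transcript length (−0.82, FDR = 0.161).

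*Ppfia3* RNA was at 249.4, 312 and 249.5 CPM in wild-type CAD neurites and at 76.0, 90.1 and 90.1 CPM in knockout neurites. All 3 knockout libraries were under all 3 wild-type ones, and the difference was −1.66 ± 0.09 on the log2 scale, 3.17-fold. In soma it was 55.4, 54.1 and 59.6 CPM against 43.1, 42.2 and 38.6 CPM, again without overlap (−0.45 ± 0.09). Its LR went from 2.26 to 1.05, a change of −1.21 ± 0.13. *Bsn* RNA was at 81.9, 90.6 and 69.2 CPM in wild-type and 31.9, 34.9 and 39.5 CPM in knockout neurites, which did not overlap (−1.19 ± 0.10, 2.27-fold). Its soma libraries overlapped at 74.2, 75.6 and 76.8 CPM against 75.3, 71.3 and 64.7 CPM (−0.10 ± 0.09). Its LR went from 0.09 to −0.99, a change of −1.08 ± 0.13. *Ppfia3* and *Bsn* were picked for these falls.

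*Erc1*, the scaffold that binds liprin-α, was at 69.9, 61.8 and 61.7 CPM in wild-type and 62.7, 56.3 and 63.8 CPM in knockout neurites. Its groups overlapped there and in soma, and no change passed the test (LR change −0.05 ± 0.10, FDR = 0.9). *Ppfia4* had 29, 27 and 21 counts in wild-type and 42, 58 and 75 in knockout soma. It rose by 1.24 ± 0.30 on the log2 scale in soma (FDR = 0.00422), the 1 of 3 tested RNAs to do so, against 22.8% of genes changed in either direction. It had 17, 18 and 11 counts in wild-type and 23, 32 and 20 in knockout neurites (log2 change 0.65 ± 0.33, FDR = 0.141). The soma call rests on few reads: the FDR was 0.0533 without replicate 2 of every group, 0.0669 without replicate 3 and 0.177 with length-scaled counts.

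**Figure D3:**
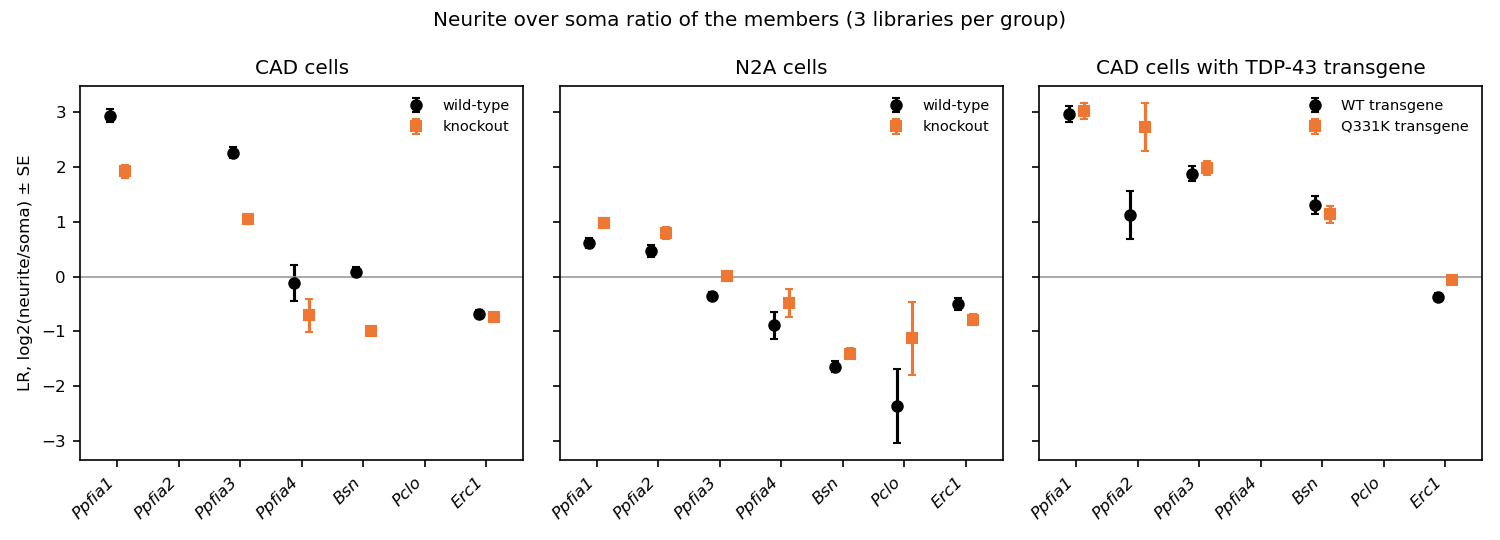
LR (y axis, log2 of neurite over soma, ± SE) of each tested RNA in CAD cells, N2A cells and CAD cells with a transgene, with wild-type states as black circles and knockout or Q331K states as orange squares. In CAD cells the LRs of *Ppfia1*, *Ppfia3* and *Bsn* are lower in knockout, while in N2A cells no LR change passed the test.

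The same comparison in N2A cells gave no LR change among the 7 RNAs that passed an FDR of 0.01 with edgeR, where 0.1% of 17912 genes passed. At an unadjusted p under 0.05 there were 2 of 7 (*Ppfia3* and *Ppfia1*), near the 31.2% of all genes, and DESeq2 called 0 of 7, against 10.7%. Over all genes edgeR called 16 higher and 2 lower, DESeq2 344 higher and 1565 lower, and upper-quartile scaling 136 higher and 9 lower. *Ppfia3* RNA was at 40.1, 41 and 36.2 CPM in wild-type and 43.1, 40.7 and 39.2 CPM in knockout neurites, which overlapped. In soma it was at 52.8, 49.9 and 47.1 CPM against 40.1, 42.9 and 39.7 CPM, all knockout libraries lower, with a log2 change of −0.29 ± 0.08 (FDR = 0.0114). Its wild-type LR of −0.35 compared with 0.00 after knockout (change 0.36 ± 0.11, FDR = 0.0535).

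*Bsn* RNA was at 25.8, 24.3 and 24.3 CPM in wild-type and 32.3, 26.0 and 33.8 CPM in knockout N2A neurites, higher in each knockout library (0.31 ± 0.11, FDR = 0.0515). Its soma libraries overlapped, and its wild-type LR of −1.64 compared with −1.40 after knockout (change 0.24 ± 0.15, FDR = 0.276). *Ppfia1* was at 132.5, 136 and 119.0 CPM in wild-type and 182, 190 and 148 CPM in knockout neurites. It was higher in all 3 knockout libraries, a rise of 0.43 ± 0.09 on the log2 scale (FDR = 0.00373), and was the 1 of 7 RNAs called in neurites, against 11.6% of genes. Its soma libraries overlapped, and its LR change was 0.36 ± 0.13 (FDR = 0.0789). The neurite call was lost without replicate 1 of every group (FDR = 0.0342), without replicate 2 (FDR = 0.153) and with length-scaled counts (FDR = 0.0131).

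*Ppfia2*, which encodes a brain liprin-α, was at 46.9, 53.2 and 45.6 CPM in wild-type and 38.8, 38.3 and 35.9 CPM in knockout N2A soma. Each knockout library was lower (−0.37 ± 0.11, FDR = 0.0249), and the neurite libraries overlapped. *Erc1* was at 82.3, 74.6 and 68.9 CPM in wild-type and 82.4, 89.4 and 89.25 CPM in knockout soma (0.21 ± 0.11, FDR = 0.145), with an LR change of −0.29 ± 0.15 (FDR = 0.207). Thus 0 of 7 RNAs passed in N2A soma with edgeR, against 16.1% of genes (1955 higher and 922 lower, or 1435 higher and 1492 lower with upper-quartile scaling). With an unadjusted p under 0.05 there were 2 of 7, *Ppfia2* and *Ppfia3*, against 41.9% of genes, and DESeq2 called *Ppfia3* (FDR = 0.00965), against 22.4%. With the replicate number as a block, which pairs the soma libraries of the genotypes, 2 of 7 were called, *Ppfia2* (−0.36, FDR = 0.00786) and *Ppfia3* (−0.29, FDR = 0.00601), against 18.8% of genes. *Ppfia4* (27 to 70 counts per library) and *Pclo* (1 to 21) overlapped between genotypes in both fractions, and their LR changes of 0.41 ± 0.36 and 1.24 ± 0.97 did not pass.

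In wild-type N2A cells, all 7 RNAs differed between neurites and soma at an FDR of 0.01, a cut that 59.2% of genes passed (5825 higher and 4773 lower, or 4254 higher and 6624 lower with upper-quartile scaling). *Ppfia1* (LR 0.62 ± 0.09, FDR = 2.54e-05) and *Ppfia2* (0.46 ± 0.11, FDR = 0.00199) were higher in neurites, although with upper-quartile scaling the LR of *Ppfia2* was 0.16 (FDR = 0.23). *Bsn* (−1.64 ± 0.11, FDR = 8.31e-09), *Erc1* (−0.50 ± 0.11), *Ppfia3* (−0.35 ± 0.08), *Ppfia4* (−0.89 ± 0.25) and *Pclo* (−2.37 ± 0.67) were higher in soma. Leaving out replicate 1, 2 or 3 of every group in turn left between 2 and 5 of the 7 calls. These fits hold fewer libraries, and the share of all genes called in them is not given here. The *Pclo* ratio rests on 2, 1 and 5 counts in neurites and 21, 11 and 13 in soma.

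**Figure D4:**
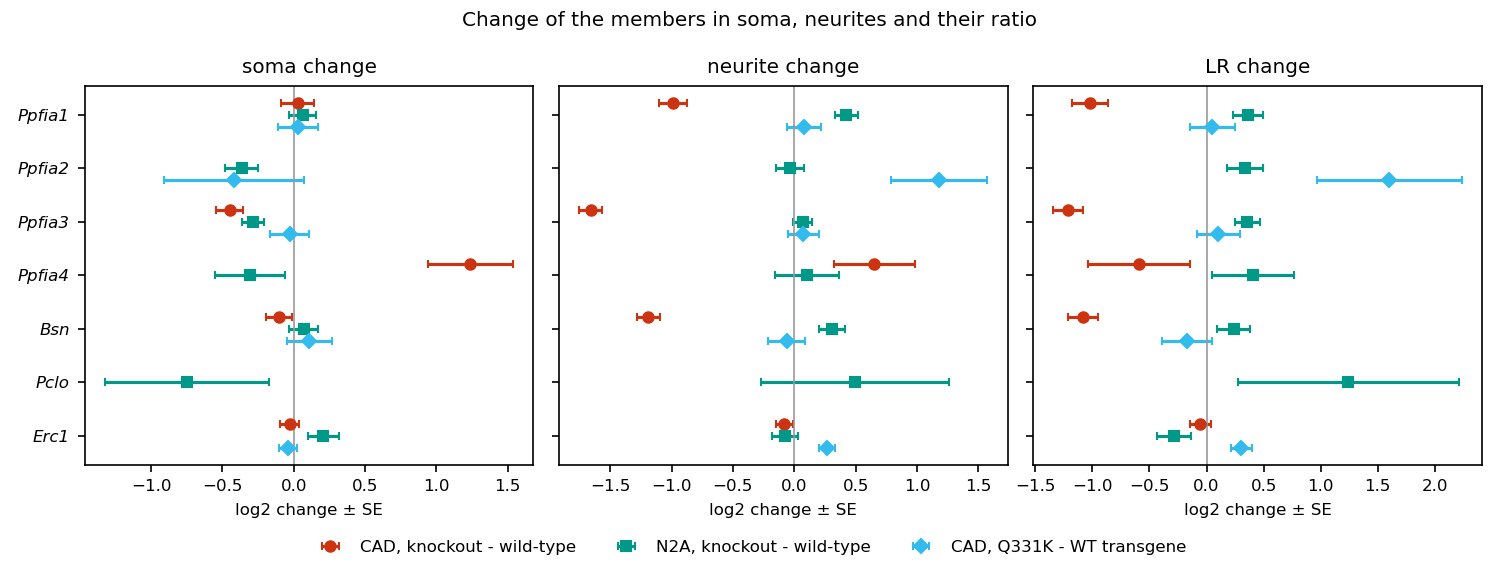
Log2 change ± SE (x axes) of each tested RNA in soma, in neurites and in LR for knockout against wild-type CAD cells (red), knockout against wild-type N2A cells (green) and Q331K against wild-type transgene (blue). The CAD points of *Ppfia1*, *Ppfia3* and *Bsn* lie near −1 or below in neurites and in LR, and the N2A points lie to the right of them.

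The change of LR was then compared between the lines in a fit of all CAD and N2A libraries together. *Ppfia1* differed: its LR change was 1.36 ± 0.22 higher in N2A than in CAD cells (FDR = 0.00195), and it was 1 of 5 tested RNAs that passed, against 0.203% of 19700 genes (20 higher and 20 lower, or 48 higher and 20 lower with upper-quartile scaling). This call was lost without replicate 1, 2 or 3 of every group in turn (1.25 to 1.53, FDR = 0.0172 to 0.123) and with length-scaled counts (1.18, FDR = 0.0697). The same difference was 1.54 ± 0.17 for *Ppfia3* and 1.30 ± 0.20 for *Bsn*, which were picked on the CAD fall, and −0.26 ± 0.18 for *Erc1* (FDR = 0.476). In wild-type soma, 4 of 5 tested RNAs differed between the lines, against 51.2% of genes (4176 higher and 5913 lower in N2A, or 5632 higher and 4706 lower with upper-quartile scaling). *Ppfia2* was 8.52 ± 0.22 higher in N2A on the log2 scale (FDR = 2.75e-20), with 1308, 1383 and 1347 counts there and 5, 3 and 4 in CAD cells. *Ppfia4* was 1.38 ± 0.27 higher (FDR = 8.41e-05). *Erc1* was lower by −0.68 ± 0.09 (FDR = 5.54e-07), and so was *Ppfia1* by −0.42 ± 0.11 (FDR = 0.00211), although with upper-quartile scaling the *Ppfia1* difference was −0.22 (FDR = 0.0909). *Pclo* was 1.33 ± 0.60 higher (FDR = 0.0574). As descriptions, *Ppfia3* was at −0.40 ± 0.08 and *Bsn* at −0.19 ± 0.10.

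The third experiment asked whether the ALS mutation changes localization when CAD cells express mutant in place of wild-type TDP-43. With the wild-type transgene, *Ppfia1* was at 86.5, 83.3 and 86.2 CPM in soma and 519, 792 and 686 CPM in neurites (LR 2.96 ± 0.15, FDR = 2.7e-10). *Ppfia3* (LR 1.88 ± 0.13, FDR = 1.38e-08) and *Bsn* (LR 1.30 ± 0.16, FDR = 6.19e-06) were also higher in neurites, and *Erc1* was lower there (LR −0.37 ± 0.07, FDR = 0.000347). *Ppfia2* (LR 1.12 ± 0.44, FDR = 0.0537) did not pass, so 4 of 5 tested RNAs did, against 27.5% of 13940 genes. The order of LRs, *Ppfia1* over *Ppfia3* over *Bsn* over *Erc1*, was that of wild-type CAD cells in the first experiment. The *Bsn* LR was 1.30 here and 0.09 there. The experiments differ in the engineered CAD line, in depth and in doxycycline, which the transgene cells had and the wild-type cells of the first experiment did not. They were not tested against each other.

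None of the 5 tested RNAs passed an FDR of 0.01 between the transgenes with edgeR, and neither did any gene in LR, in soma or in neurites (0% of 13940 in each, with 605, 995 and 1372 genes at an unadjusted p under 0.05 and 0, 0 and 14 called by DESeq2, none of them these RNAs). With the Q331K transgene, *Ppfia1* neurites were at 601, 645 and 867 CPM and overlapped the wild-type transgene. *Ppfia3* was at 91.8, 143 and 102 CPM with the wild-type and 116, 112 and 126.5 CPM with the Q331K transgene in neurites, and *Bsn* was at 86.6, 128 and 116 CPM against 102, 92.0 and 124 CPM. Both overlapped between the groups. *Erc1* neurites did not overlap, at 76.4, 68.6 and 75 CPM with the wild-type and 86.1, 87.4 and 91.4 CPM with the Q331K transgene, but neither their change of 0.27 ± 0.07 (FDR = 0.261) nor the LR change of 0.31 ± 0.09 (FDR = 0.999) passed. *Ppfia2* neurites did not overlap either, at 12, 11 and 11 counts against 21, 23 and 29 (1.18 ± 0.39, FDR = 0.355). These 2 of 5 RNAs were those at an unadjusted p under 0.05 in neurites, against 9.84% of genes, and in LR, against 4.34%. In soma there were 0, against 7.14%. The LR changes of *Ppfia1* (0.05 ± 0.20), *Ppfia3* (0.10 ± 0.19) and *Bsn* (−0.17 ± 0.22) were each smaller than their SE.

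Transcript models were then compared within genes, for those holding at least 10% of their gene's TPM in some group. *Bsn* had 2. The long model has 15938 bases and 12 exons. The short model has 7496 bases and 8 exons, of which 6 are identical to exons of the long one, and it starts inside a large exon of the long model at chr9:108109885-108116526 with a first exon of 352 bases at chr9:108110062-108110413 that leaves out the last 177 bases of that exon. None of its bases lies outside the exons of the long model, so the estimate of its share depends on how salmon splits shared sequence. In CAD neurites the short model held 0, 3.67 and 0% of *Bsn* TPM in wild-type and 16.4, 32.5 and 27.7% in knockout libraries, and in CAD soma 0, 0 and 5.49% against 16.9, 18.9 and 21.3%. All knockout libraries were above all wild-type ones in both fractions. In N2A soma the shares were 0, 14.2 and 12.6% against 26.4, 21.1 and 28.6%, also apart, and in N2A neurites 0, 32.4 and 18.5% against 23.7, 30.4 and 36.9%, which overlapped. In the Q331K experiment it was at most 19.6% in any library and listed at 0 in 7 of 12. A value listed at 0 can be a failed estimate, and no test of shares was run. How often the shares of all transcript models lie apart between such groups of 3 libraries was not counted. The shares here and in the next paragraph are therefore descriptions.

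Some estimated shares of *Ppfia3* models also lay apart between the CAD genotypes. A model of 3899 bases and 26 exons held 15.3, 18 and 16.3% of *Ppfia3* TPM in wild-type and 26.4, 35.6 and 30.5% in knockout neurites, and 12, 12.4 and 13.9% against 19.8, 28.7 and 19.3% in soma. The genotypes overlapped in neither fraction, and the leading model (4647 bases, 30 exons) went from 65.8 ± 5.14% to 53.9 ± 5.49% in neurites. In TPM, the model of 3899 bases was at 3.09, 6.44 and 5.56 in wild-type and 2.36, 4.01 and 3.69 in knockout neurites, which overlapped, and so did the soma TPM at 2.27, 2.89 and 3.55 against 2.56, 3.76 and 2.62. A model of 1060 bases annotated as a retained intron held 16.1, 14.9 and 14.6% in wild-type CAD soma and was listed at 0 in all 3 knockout soma libraries. A noncoding model of 4575 bases held 4.65, 6.25 and 0.651% there against 15, 11.3 and 15.1%, without overlap, and both models overlapped between genotypes in neurites. Shares of a library sum to the whole gene, so they do not move independently. In N2A neurites the shares of the model of 3899 bases overlapped at 28.0, 35.4 and 28.0% against 28.6, 28.3 and 24.5%. For *Ppfia1*, the coding model of 5181 bases held 50.3 ± 4.37% in wild-type and 44.9 ± 4.13% in knockout CAD neurites, which overlapped. A coding *Ppfia1* model of 4829 bases held 7.84, 6.83 and 7.44% in wild-type and 2.52, 1.54 and 3.37% in knockout CAD neurites. In CAD soma it held 6.31, 5.52 and 5.81% against 3.13, 1.67 and 3.67%. Both fractions were without overlap, while its N2A shares overlapped. The short *Ppfia1* model of 804 bases, annotated as a retained intron, held between 22.4 and 38.4% in the mean of each group except the soma with the wild-type transgene, where it was listed at 0 in all 3 libraries. *Ppfia1* TPM in that soma is therefore not comparable with the other groups, and the length-scaled LR change for Q331K, −0.52, rests on it. For *Erc1*, a model of 8356 bases held 36.1, 30.8 and 34.9% in wild-type and 57.7, 40.5 and 48.5% in knockout N2A neurites, without overlap. A model of 6719 bases held 22.1, 21.7 and 25.6% against 27.9, 32.6 and 33% in N2A soma, also apart. In N2A neurites it held 22.3, 21.1 and 20.9% against 23, 25.5 and 26.8%, apart as well. The shares of these *Erc1* models overlapped between genotypes in CAD cells. An *Erc1* model of 1836 bases held 16, 16 and 17.2% in wild-type and 13, 11 and 14.8% in knockout CAD neurites, without overlap. A model of 8760 bases held 17.8, 27.2 and 18.7% against 0, 16.6 and 10.4% in N2A neurites, also apart.

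**Figure D5:**
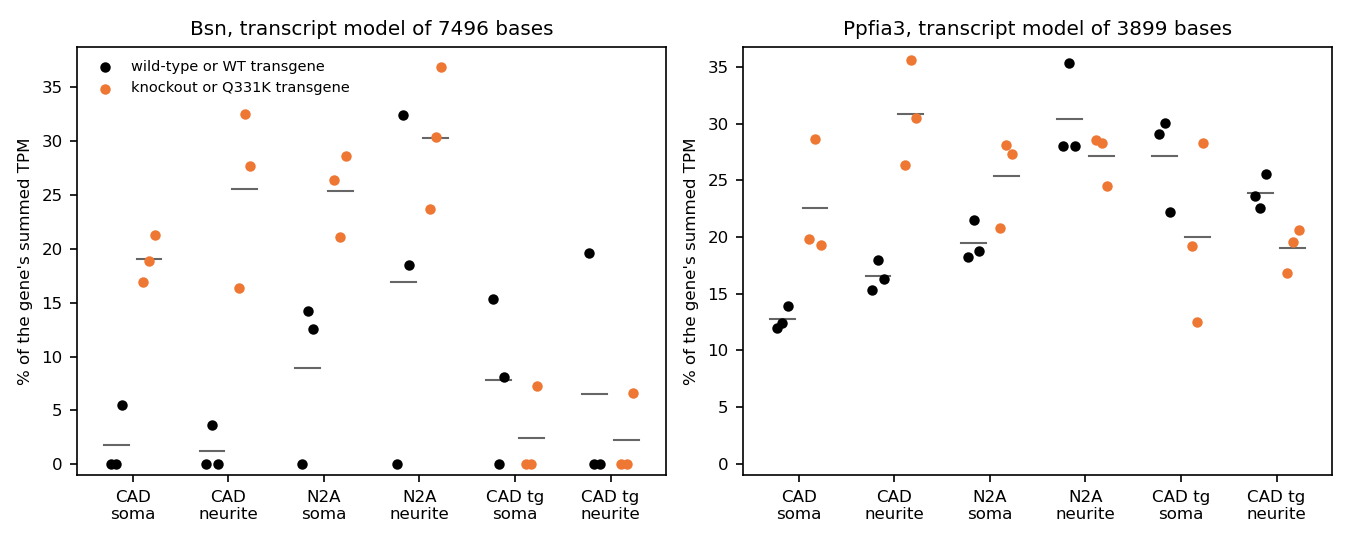
Share of the 7496-base model in *Bsn* TPM and of the 3899-base model in *Ppfia3* TPM (y axes, %) in each library, wild-type or WT transgene in black and knockout or Q331K transgene in orange, with group means as lines. CAD tg stands for CAD cells with a transgene, and in CAD cells the knockout libraries lie above the wild-type ones in both fractions for both models.

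The 6 partner lists hold 73 other genes, of the presynapse and of the cortical ELKS and liprin complex. These lists were chosen with earlier results of these data known, so their counts are descriptions. RNAs of these 73 gave a mixed picture. In CAD cells, 64 were tested, and 1 changed its LR. This was *Kank2* (3.50 ± 0.12, FDR = 2.04e-11), a cortical adaptor of the ELKS and liprin complex, at 18.4, 20.5 and 18.8 CPM in wild-type and 246, 307 and 285 CPM in knockout neurites, opposite in direction to *Ppfia1*. The median LR change of the 64 was −0.13, and that of all tested genes was −0.0049. In neurites, 13 rose and 21 fell (53.1% of the 64, against 25.3% of all genes), and in soma 14 rose and 10 fell (37.5% against 22.8%). Calcium channel subunits and neurexins had 0 higher and 7 lower of 11 in neurites (median −0.52), and 0 higher and 3 lower in soma. Cortical complex genes had 3 higher and 0 lower of 5 in both. Active zone proteins had 5 higher and 5 lower of 14 in neurites, the release machinery 3 and 4 of 15, liprin partners 2 and 3 of 10, and Bassoon and Piccolo partners 0 and 2 of 9.

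Within these lists, the Munc13 priming factors moved apart in CAD cells. *Unc13c* fell in neurites from 8.92, 12.7 and 9.42 CPM to 0.655, 0.835 and 0.949 CPM (−3.66 ± 0.20, FDR = 1.38e-09), and *Unc13a* rose in soma from 89.0, 80.7 and 70.3 CPM to 295.5, 254 and 236.5 CPM (1.71 ± 0.12, FDR = 2.72e-08). The adaptor *Apba1* rose in CAD soma (0.99 ± 0.07, FDR = 3.9e-08) and in N2A soma (2.16 ± 0.11, FDR = 8.29e-09). *Rims1*, which encodes the RIM1 scaffold of the active zone, fell in CAD soma (−0.99 ± 0.10, FDR = 1.42e-06). In N2A cells, 59 of the 73 were tested. *Kank2* was the 1 with an LR change (1.26 ± 0.18, FDR = 0.00487), and 15 rose and 1 fell in soma (27.1%, against 16.1% of all genes), or 13 and 4 with upper-quartile scaling. In neurites 11 rose and 2 fell (22%, against 11.6%), or 14 and 3 with upper-quartile scaling. By list, the soma calls were 6 higher among 13 active zone proteins, 3 higher of 10 liprin partners, 2 of 8 Bassoon and Piccolo partners, 3 of 14 release genes, 1 higher and 1 lower of 10 channel and neurexin genes, and 0 of 4 cortical genes. Between the transgenes 0 of 59 passed in LR, soma or neurites with edgeR or DESeq2, and 1, 8 and 10 were at an unadjusted p under 0.05 with edgeR.

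In wild-type CAD cells, the LRs of *Cplx2* and *Kif1a* were above those of the 5 scaffolds that passed the filter there. The complexin *Cplx2* had an LR of 4.88 ± 0.15 in CAD and 2.65 ± 0.19 in N2A cells, and *Kif1a*, the motor that binds liprin-α, had 4.52 ± 0.15 in CAD cells, with 308, 321 and 335 CPM in soma and 7137, 8829 and 6096 CPM in neurites. *Kif1a* RNA was lower in N2A soma by −8.06 ± 0.47 on the log2 scale (FDR = 2.28e-13). Over the lists, 16 of 64 were higher and 23 lower in CAD neurites than in soma (60.9%, against 41.3% of all genes). In N2A cells 23 of 59 were higher and 20 lower in neurites (72.9% against 59.2%), or 13 and 27 with upper-quartile scaling. In wild-type soma, 5 of 66 were higher and 40 lower in N2A than in CAD cells (68.2%, against 51.2% of all genes), or 10 and 34 with upper-quartile scaling, with a median of −0.53 against 0.07 over all genes.

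Over the 36 libraries, centred within each experiment, *Ppfia1* and *Ppfia3* varied together (Pearson r = 0.918 of log2 CPM with 0.5 added), while *Ppfia1* and *Erc1* varied in opposite ways (r = −0.667) and *Ppfia3* and *Bsn* less closely (r = 0.465). All libraries of an experiment share its soma and neurite contrast, so these are descriptions. Among 13231 genes that passed the filter in all 3 experiments, those most like *Ppfia3* were *Mapkbp1* (0.977), *Specc1* (0.968), *Atp6v1b1* (0.962), *Pcnx4* (0.959) and *Synm* (0.958). Those most like *Bsn* were *Sgsm2* (0.945), *Dclk2* (0.935), *Flnc* (0.928), *Myo18a* (0.894) and *Pou6f1* (0.891).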

How the data were processed

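The authors removed adapter sequence with cutadapt, ran Salmon on every library, and deposited tables with an estimated count and TPM for each transcript. The paper names mm10 with Gencode version 17. Here the estimated counts and TPM values were summed to genes with GENCODE vM21 on GRCm38, and the counts were rounded. Transcripts without a gene held at most 0.129% of the counts in any library. The deposited effective lengths served the length-scaled alternative. The doxycycline dose is that of the labels, and the paper gives another.

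Genes passing filterByExpr were fitted per experiment with edgeR 4.0.16 in R 4.3.3 (TMM, glmQLFit, glmQLFTest, Benjamini-Hochberg adjustment over all tested genes, FDR of 0.01). The LR change is the interaction of compartment and state, and the lines were compared in a joint fit of CAD and N2A libraries. Values after ± are SE for fitted changes and SD for levels. Alternatives were an FDR of 0.05, DESeq2 1.42.0, upper-quartile scaling, a replicate block, length-scaled counts, leaving out each replicate number, no filter and a minimum of 10 counts per library. Deviations from the group means were correlated between wild-type and knockout soma libraries. Same-numbered ones correlated at 0.135 to 0.559 in CAD and 0.204 to 0.602 in N2A cells. Different-numbered ones correlated at −0.496 to 0.314 in CAD and −0.501 to 0.283 in N2A cells. The ranges overlap, and the numbers were taken to pair these libraries as an assumption. For the other libraries the correlations left pairing open, and the main fits used no pairing. The fits were tested on simulated data. For motifs, the longest 3′ UTR that the annotation gives a gene was searched with python 3.11.15, numpy 2.4.6 and pandas 2.3.3, and figures drawn with matplotlib 3.10.9.

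The genes and lists were chosen with earlier results of these data known. Named are the 7 scaffolds, *Tardbp*, from the lists at most the 5 largest changes past the FDR per comparison, some of them given only as counts, and the 5 genes most correlated with *Ppfia3* and with *Bsn*. The fractions of human motor neurons and the reporter, binding and decay assays were not used here, and 1 gene of the lists is counted but its own values are not reported here.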

Additional observations from a re-analysis of the deposited data

Results flagged for a closer look

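Between the lines, the LR changes of 1 of 5 tested scaffold RNAs and 3 of 66 genes of the partner lists differed past an FDR of 0.01 in the joint edgeR fit, against 0.203% of all genes. With upper-quartile scaling or the replicate block, 2 of the 66 did. The genes and lists were chosen with earlier results of these data known, so these shares are descriptions. The difference, N2A minus CAD, was 1.36 for *Ppfia1*, whose LR change was −1.02 in CAD and 0.36 in N2A cells. It was 1.56 for *Cacna1b*, the N-type calcium channel subunit, and 1.38 for *Unc13a*. For *Kank2* it was −2.26, with LR changes of 3.50 in CAD and 1.26 in N2A cells. Groups of 3 libraries are too small for a search for libraries that stand apart.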

How the results depend on the processing

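Over all values and alternatives, 641 kept their direction and their side of the threshold, 36 lost and 7 gained the threshold, 18 moved and 24 changed sign. With length-scaled counts the number of called RNAs was 0 in place of 1 for the CAD LR change, CAD soma, N2A neurites and the N2A minus CAD LR change. Over all genes, these fits called 33 higher and 22 lower, 1400 and 1495, 926 and 499, and 16 and 13, in that order. In N2A soma, where 0 were called, there were 2 at an FDR of 0.05, for which the share of all genes is not given here. DESeq2 called 1 (against 22.4% of all genes) and the replicate block 2 (against 18.8%). Upper-quartile scaling called 1, beside 1435 genes higher and 1492 lower. The fit with no filter called 1 (2476 genes higher and 1295 lower). With at least 10 counts in every library 2 were called (1898 genes higher and 1288 lower). In wild-type soma N2A minus CAD, 2 were called with at least 10 counts, beside 3923 genes higher and 4220 lower. *Ppfia2*, *Ppfia4* and *Pclo* were not tested there. Leaving out replicates gave 0 to 0 for the CAD LR change, 0 to 1 in CAD soma, 0 to 1 in N2A neurites, 2 to 5 for the wild-type N2A LR and 0 to 0 for the N2A minus CAD LR change, with fewer libraries in each fit. The shares of all genes called in these smaller fits are not given here. Upper-quartile scaling moved the median of all genes by −0.30 in wild-type N2A LR, 0.20 in wild-type soma N2A minus CAD, 0.14 in the N2A minus CAD LR change, 0.12 in the N2A LR change and −0.10 in N2A soma, and with at least 10 counts in every library by −0.23, 0.15, 0.14, 0.09 and −0.05. For other changes the cause was not tested.

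Values that changed sign were not called. With length-scaled counts they were *Bsn* 0.033 and *Erc1* 0.015 in CAD soma, *Ppfia1* −0.52 in Q331K LR, *Erc1* 0.037 in Q331K soma and *Pclo* 0.13 in N2A minus CAD LR. With upper-quartile scaling they were *Ppfia1* −0.040 and *Bsn* −0.028 in N2A soma and *Bsn* 0.018 in wild-type soma N2A minus CAD, and with at least 10 counts *Bsn* −0.010 in wild-type CAD LR. Leaving out replicates gave −0.016 to 0.059 for *Ppfia1* in CAD soma, −0.24 to 0.059 for *Ppfia4* in wild-type CAD LR, −0.13 to 0.13 for *Ppfia2* and −0.16 to 0.063 for *Erc1* in N2A neurites, and −0.47 to 0.011 for *Erc1* in N2A minus CAD LR. In the Q331K experiment it gave −0.15 to 0.33 for *Ppfia1* and −0.008 to 0.28 for *Ppfia3* in LR. It gave −0.046 to 0.072 for *Ppfia1*, −0.085 to 0.041 for *Ppfia3* and −0.005 to 0.18 for *Bsn* in soma, and −0.079 to 0.28 for *Ppfia1*, −0.046 to 0.32 for *Ppfia3* and −0.18 to 0.15 for *Bsn* in neurites.

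Deviations from the group means were also correlated between soma and neurite libraries. Same-numbered ones gave −0.13 to 0.28 in CAD, −0.01 to 0.19 in N2A and −0.03 to 0.17 in the Q331K experiment. Different-numbered ones gave −0.20 to 0.13, −0.19 to 0.03 and −0.18 to 0.09, in that order. Within groups, these ranges were apart in wild-type CAD and wild-type N2A cells and overlapped in the other groups. Whether the numbers pair the fractions was not tested. Between genotypes, same-numbered neurite libraries and those of the Q331K experiment were not all above 0.1. The replicate block gave the 2 calls in N2A soma above (*Ppfia2* −0.36, *Ppfia3* −0.29), and it lost those of *Ppfia4* (FDR = 0.0125) and *Pclo* (FDR = 0.0106) in wild-type N2A LR. It changed no other call. In the 3′ UTR of the transcript with the highest TPM, *Ppfia2* had 5 and *Pclo* 11 matches in place of 15 and 17. Depth limits *Ppfia4*, *Pclo* and, in CAD cells, *Ppfia2*.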
